A study of Mus musculus with 8 samples.

Results

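The proteasome genes of mouse epidermis were followed here 24 hours after a single topical dose of a glucocorticoid. The members were all genes whose symbol starts with Psma, Psmb, Psmc, Psmd, Psme, Psmf or Psmg, without the interferon-induced Psmb8, Psmb9 and Psmb10, and 39 of the 9416 genes tested met this rule. They comprised 12 genes of the core particle, 15 of the regulatory particle, 4 activators, 6 assembly factors and 2 genes that carry a proteasome symbol without being subunits, Psmc3ip and Psme3ip1. Each gene was read through the probe with the highest mean over the 8 arrays. Psma1, Psma6, Psmd2, Psmd3, Psmf1 and Psmg4 were not analysed here.

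RNA came from the epidermis of wild-type B6129 mice aged 7 to 8 weeks, females and males, whose back skin had been shaved 3 days before treatment. Treated animals received 2 µg of fluocinolone acetonide (FA), a synthetic glucocorticoid, once in 200 µl of acetone, and control animals received acetone alone. Each of the 4 groups (female vehicle, female FA, male vehicle, male FA) held 2 bead arrays, and the series' design gives 2 animals per condition. The labels do not tie an array to an animal, so the p-values measure the spread between these arrays.

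The proteasome is the large protease that degrades proteins tagged with ubiquitin. Its core particle is a barrel of alpha rings, which gate the entrance, around beta rings, which hold the caspase-like, trypsin-like and chymotrypsin-like active sites. The regulatory particle caps the barrel, binds the ubiquitin chain, removes it and unfolds the substrate with a ring of ATPases. Other caps (the PA28 and PA200 activators) open the barrel without ubiquitin, and dedicated chaperones build the rings. In skin the proteasome serves protein turnover in keratinocytes and supplies peptides for antigen presentation.

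The promoters of 4 genes are shown because these genes carry the main contrasts below: Psma2 and Psmb6 of the core, the chaperone Psmg1, and the activator Psme4, which lay on the other side of 0. The sequences are RefSeq's for GRCm38.p6, from 250 bases before to 50 after the start used in its promoter table, and capitals mark matches to the motifs searched. Psma2 lies at chr13:14612992-14613291 on the plus strand, with a CCAAT box and a second form of the ETS site read from the other strand (CACTTCC). Psmb6 lies at chr11:70525107-70525406 on the plus strand, around a start 33 bases downstream of the gene's first annotated base, with TGACGGAGC, which fits the core letters of the antioxidant response element. Psmg1 lies at chr16:95990911-95991210 on the minus strand, with CCGGAAG, an ETS site. Psme4 lies at chr11:30771525-30771824 on the plus strand, where the ETS site and its second form overlap in the first run of capitals, and the second run fits the antioxidant core on the other strand.
Psma2: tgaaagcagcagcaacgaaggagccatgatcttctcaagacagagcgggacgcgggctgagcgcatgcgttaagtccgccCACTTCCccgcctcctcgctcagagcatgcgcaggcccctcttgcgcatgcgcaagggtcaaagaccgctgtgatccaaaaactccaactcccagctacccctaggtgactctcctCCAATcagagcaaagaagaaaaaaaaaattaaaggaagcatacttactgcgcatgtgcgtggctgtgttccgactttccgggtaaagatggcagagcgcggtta
Psmb6: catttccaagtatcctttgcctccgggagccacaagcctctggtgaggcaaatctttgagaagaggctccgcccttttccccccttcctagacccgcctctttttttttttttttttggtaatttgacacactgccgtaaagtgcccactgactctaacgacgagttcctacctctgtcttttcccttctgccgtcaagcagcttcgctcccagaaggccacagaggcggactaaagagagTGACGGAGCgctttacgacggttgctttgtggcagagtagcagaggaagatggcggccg
Psmg1: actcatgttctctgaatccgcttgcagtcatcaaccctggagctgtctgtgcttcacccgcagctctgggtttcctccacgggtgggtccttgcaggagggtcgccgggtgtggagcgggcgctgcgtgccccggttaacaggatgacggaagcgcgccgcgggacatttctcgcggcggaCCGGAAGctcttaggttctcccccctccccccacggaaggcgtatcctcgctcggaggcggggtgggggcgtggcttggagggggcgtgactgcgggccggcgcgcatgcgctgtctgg
Psme4: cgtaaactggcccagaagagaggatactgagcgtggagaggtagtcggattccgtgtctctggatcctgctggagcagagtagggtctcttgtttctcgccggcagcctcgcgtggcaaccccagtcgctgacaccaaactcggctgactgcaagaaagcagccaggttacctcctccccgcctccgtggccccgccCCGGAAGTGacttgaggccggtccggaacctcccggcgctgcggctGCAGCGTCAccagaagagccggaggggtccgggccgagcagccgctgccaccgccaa

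In all, 7 motifs were searched on both strands, chosen after the members' values had been seen. A window was found for 33 of the 39 genes (36 windows in all). CCGGAAG stood in 41.7% of the members' windows and in 8.86% of all 32851 windows of this length. By gene it was found in 8 of 13 regulatory particle genes, in 0 of 9 core particle genes and in 6 of the 11 other genes with a window. The core genes Psmb1, Psmb2 and Psmb7 had no window. TGACNNNGC, the core of the antioxidant response element through which Nrf1 and Nrf2 bind, stood in 16.7% of the members' windows and 12.4% of all windows. TGACTCAGC, a stricter form that lies within TGACNNNGC, was in none of the members' windows and in 0.454% of all windows. The second ETS form GGAAGTG stood in 19.4% against 11%, the E-box CACGTG in 11.1% against 7.15%, and CCAAT in 33.3% against 37.4%. By gene, GGAAGTG was in 3 of 13 regulatory particle genes, 2 of 9 core particle genes and 2 of the 11 others. The palindromic glucocorticoid response element was in none of the members' windows and in 0.00913% of all windows. These are matches of letters and say nothing of binding.

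As a check of the agent, the glucocorticoid-induced co-chaperone Fkbp5 rose by 4.01 ± 0.16 (log2, SE) and Tsc22d3, an anti-inflammatory effector of the receptor, by 2.33 ± 0.18. Of 12 keratinocyte markers, 10 were measured and all 10 were above background on all 8 arrays, as the tissue label asks. Their summed level (log2) was 17.37 to 17.43 in vehicle and 17.25 to 17.26 in FA, a sum carried by a few probes near the top of the scale. Of the single markers, 3 fell (Krt1 by 3.0 ± 0.15, Krt5 by 1.16 ± 0.15 and Krt14 by 0.61 ± 0.14) and 2 rose (Ivl and Krt15). Langerhans cell markers were lower in FA for 5 of 5 measured genes (13.20 to 13.47 in vehicle, 10.36 to 11.24 in FA), as were T cell markers for 4 of 4 (10.69 to 10.84 and 9.21 to 9.81). All 9 of these immune cell markers were above background on every array. Fewer cells of a type and less RNA per cell cannot be told apart in such bulk samples. Female FA replicate 2 stood apart, with 32.4% of probes above background against 44.5 to 46.9% on the other arrays. Its correlation with its partner was 0.959, against 0.986 to 0.990 within the other groups. The part of these differences in the results below was not tested.

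Most proteasome genes had a fitted change below 0 after FA, and the median change was -0.38 for the core and -0.19 for the regulatory particle, a difference that was not tested. Averaged over the sexes, 8 of the 39 genes passed the test (limma, Benjamini-Hochberg adjusted p under 0.05 over all 9416 genes), all 8 lower. Of all genes tested, 20.8% passed in either direction, 11.4% as lower and 9.40% as higher. The share of proteasome genes that passed, 20.5%, was near that of all genes in either direction, and it lay wholly on the lower side. The fitted change was below 0 for 35 of 39 proteasome genes and for 51.7% of all genes. The median change was -0.28 (log2) for the 39 genes and -0.02 for all genes. All 4 FA arrays lay below all 4 vehicle arrays for 11 of the 39 genes, against 14.6% of all genes, and all 4 lay above for 1 gene, Psme4, against 11.6%.

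**Figure D1:**
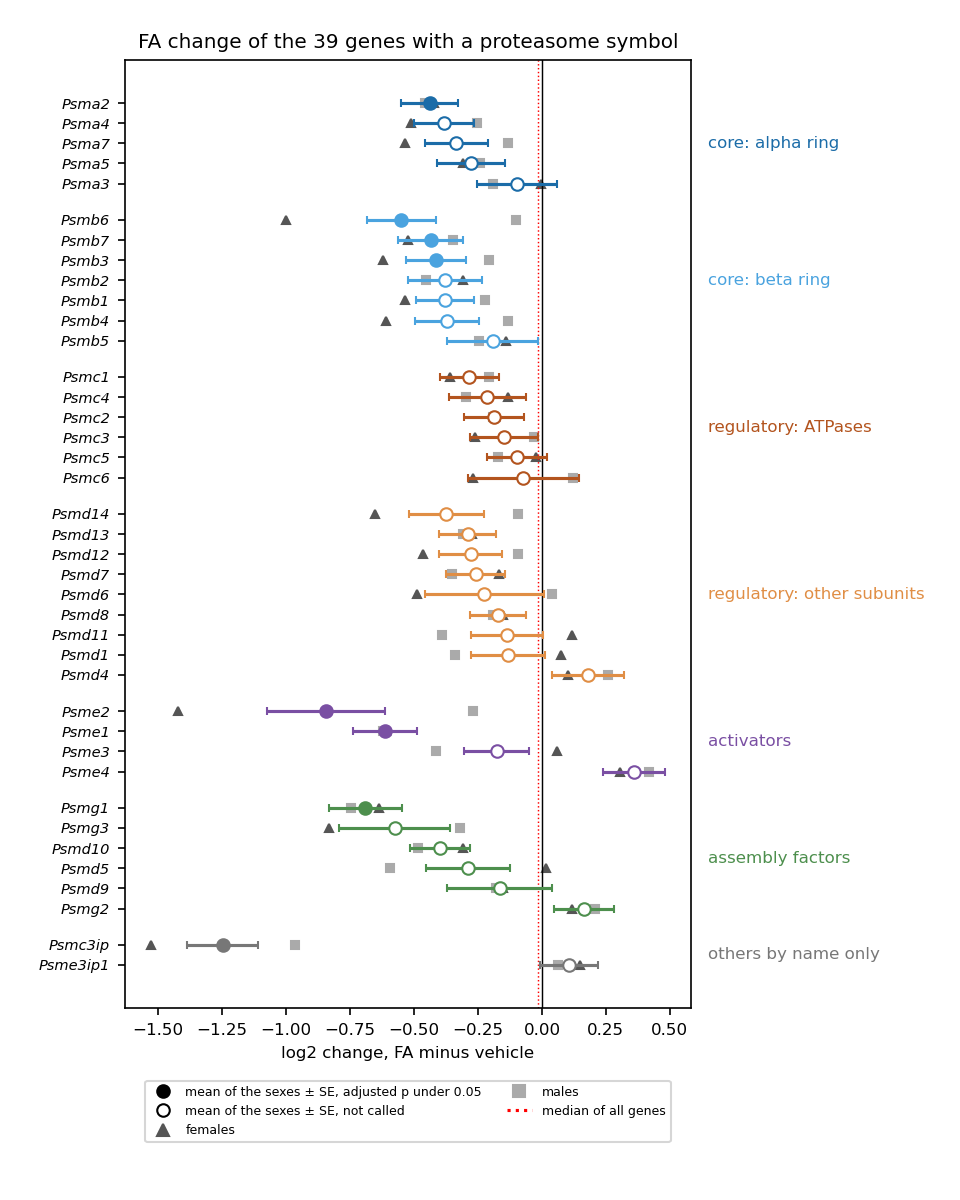
The log2 change (FA minus vehicle) of each of the 39 genes, grouped by structure. Circles with bars are the mean of the sexes ± SE (filled, adjusted p under 0.05), triangles are females, squares are males, and the dotted line is the median of all genes. All 12 core particle genes and 14 of 15 regulatory particle genes lie below 0.

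The number of genes called rested on single arrays. It was 1 without female vehicle replicate 1, without either male vehicle array or without male FA replicate 2, 3 without male FA replicate 1, 5 without female vehicle replicate 2, 6 without female FA replicate 2 and 13 without female FA replicate 1. The share of all genes called moved with it, from 10.7% to 38.1%. Psmc3ip was the gene called in each of these 8 fits. The direction moved less, and between 33 and 35 of the 39 genes stayed below 0 in them.

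In the core particle, all 12 measured genes had a change below 0, and 4 passed the test as lower. That share was 33.3%, against 20.8% of all genes in either direction and 11.4% as lower. The median change was -0.38. The alpha ring (5 genes) had a median of -0.34 and the beta ring (7 genes) one of -0.38.

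Psma2, an alpha ring subunit (chr13:14613242-14625673, GRCm38.p6), read 12.45 and 12.24 (log2 intensity) in female vehicle, 11.91 and 11.94 in female FA, 12.40 and 12.44 in male vehicle, and 11.93 and 11.99 in male FA. Every FA array was below every vehicle array, in both sexes alike. It fell by 0.44 ± 0.11 (SE, adjusted p = 0.0313, limma), to 73.8% of its vehicle level. Of the other alpha ring genes, Psma4 (-0.38, adjusted p = 0.0575) also had all FA arrays lowest, without passing. Psma7 (-0.34) and Psma5 (-0.28) did not pass. In a fit over all probes with 1 gene symbol, the other probe of Psma7 gave -0.44 and passed (adjusted p = 0.0439, limma). Psma7 also passed with the mean of its probes. Psma3 had the smallest change of the ring, -0.10 ± 0.16, and turned to 0.03 without male FA replicate 2.

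Psmb6, the caspase-like active site of the beta ring (chr11:70525324-70527858), read 10.42 and 10.45 in female vehicle and 9.63 and 9.25 in female FA. In males it read 10.31 and 10.47 in vehicle and 10.18 and 10.40 in FA. The female groups lay far apart, while the male groups overlapped. It fell by 0.55 ± 0.13 in the mean of the sexes (adjusted p = 0.0273, limma), to 68.3% of the vehicle level.

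Psmb7, the trypsin-like active site (chr2:38588046-38643952), read 9.99 and 9.62 in female vehicle, 9.27 and 9.30 in female FA, 9.94 and 9.96 in male vehicle, and 9.66 and 9.55 in male FA. Within each sex the FA arrays were the lower ones, although a male FA array exceeded a female vehicle array. It fell by 0.44 ± 0.13 (adjusted p = 0.0475, limma). Of its 3 probes, 2 gave a change of -0.44 and the third -0.02, and with the mean of its probes it read -0.30 and no longer passed.

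Psmb3, a structural subunit of the beta ring (chr11:97703434-97713500), read 11.22 and 11.47 in female vehicle, 10.78 and 10.68 in female FA, 11.19 and 11.33 in male vehicle, and 11.05 and 11.06 in male FA. All FA arrays lay lowest, with the wider gap in females. It fell by 0.41 ± 0.12 (adjusted p = 0.0453, limma). Psmb3 and Psmb7 lay close to the threshold and did not pass with median scaling, with array weights or with the replicate block.

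Psmb1 (-0.38, adjusted p = 0.0531), Psmb2 (-0.38) and Psmb4 (-0.37), the other structural subunits, had changes of nearly the same size without passing. The other probe of Psmb2 gave -0.42 and passed in the fit over all probes (adjusted p = 0.0449, limma). In that fit the probes used for Psmb3 and Psmb7 did not pass (adjusted p = 0.0555 and 0.0571). Psmb5, the chymotrypsin-like active site and the target of proteasome inhibitor drugs, had the smallest change of the ring. It read 7.58 and 7.60 in female vehicle, 7.18 and 7.73 in female FA, 7.76 and 8.09 in male vehicle, and 7.92 and 7.45 in male FA. The groups overlapped in both sexes, and the change was -0.19 ± 0.18 (adjusted p = 0.483, limma). Of the constitutive active sites, Psmb6 and Psmb7 thus passed and Psmb5 did not. Whether their changes differ was not tested.

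**Figure D2:**
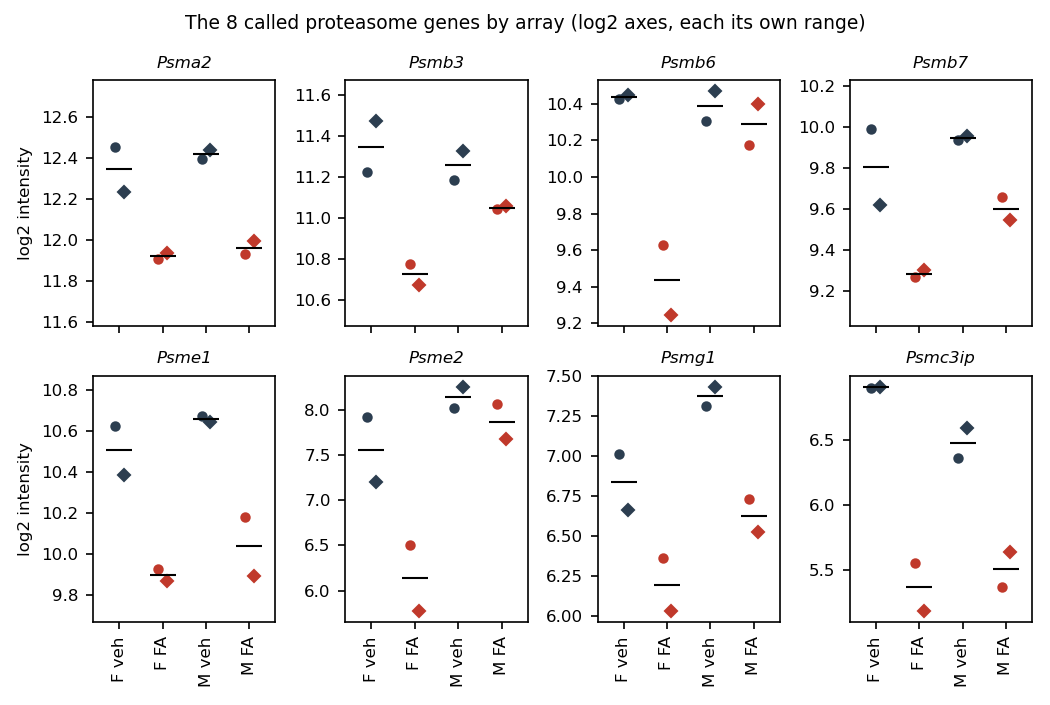
Log2 intensity on each array for the 8 genes that passed the test, by sex (F, M) and treatment (veh, FA), each panel with its own log2 axis. Circles are replicate 1, diamonds replicate 2 and lines the group means. Psma2, Psmb3, Psme1 and Psmc3ip have all 4 FA arrays below all 4 vehicle arrays.

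In the regulatory particle none of the 15 genes passed (limma), against 20.8% of all genes. The change was below 0 for 14 of them. An unadjusted p under 0.05 was found for 3 of the 15 and for 3332 of all 9416 genes. The median was -0.19, with -0.17 for the 6 ATPases of the base and -0.22 for the 9 other subunits. With no background correction Psmc1 and Psmd13 passed, and with an intensity trend Psmd7 and Psmd13 did. In both settings Psma4, Psma7, Psmb1, Psmb2 and Psmb4 of the core passed as well.

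Psmc1, the ATPase with the largest change, read 9.72 and 9.51 in female vehicle, 9.32 and 9.19 in female FA, 9.45 and 9.54 in male vehicle, and 9.32 and 9.25 in male FA. All FA arrays were below the lowest vehicle array, with a change of -0.28 ± 0.11 (adjusted p = 0.122, limma). Psmc6 was above background on 3 of 8 arrays and gave no usable change (-0.07 ± 0.22, and 0.22 with median scaling).

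Psmd14, the enzyme of the lid that cuts the ubiquitin chain from the substrate, read 9.11 and 8.67 in female vehicle, 8.31 and 8.16 in female FA, 8.63 and 8.94 in male vehicle, and 8.71 and 8.67 in male FA. The female groups were apart and the male groups overlapped. Its change was -0.37 ± 0.15 (adjusted p = 0.112, limma), the largest of the particle by the probes used. The other probes of Psmd6 and Psmd7 gave -0.55 and -0.53 and that of Psmd12 gave -0.05, none of them passing. Psmd13, another lid subunit, had all FA arrays lowest (-0.29, adjusted p = 0.108), as did Psmd8 (-0.17, adjusted p = 0.316). Psmd4, a receptor for ubiquitin chains, was the exception with 0.18 ± 0.14 (adjusted p = 0.404).

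The difference between the medians of the core and the regulatory particle was -0.19. Genes of a particle are no replicates, so the difference has no test and is set out by array. Relative to the mean of the 4 vehicle arrays, the core median was -0.47 and -0.52 on the female FA arrays, with -0.29 and -0.23 for the regulatory particle. On the male FA arrays it was -0.23 and -0.32, with -0.13 and -0.19. On the vehicle arrays the core lay between -0.11 and 0.07, and the regulatory particle between -0.05 and 0.13. The core was thus the lower of the pair on all 4 FA arrays, and on 2 of the 4 vehicle arrays. That reference pools the sexes. Against vehicle of the same sex, the fitted core and regulatory medians were -0.52 and -0.18 in females. In males they were -0.23 and -0.19, so the particles lay apart mainly in females. The mean core minus the mean regulatory level, whose size depends on the probes and of which only the change can be read, was 1.50 to 1.61 on the vehicle arrays. It was 1.29 and 1.32 on the female FA arrays and 1.46 and 1.42 on the male ones. Leaving out each array in turn, the difference of medians ranged from -0.22 to -0.13.

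**Figure D3:**
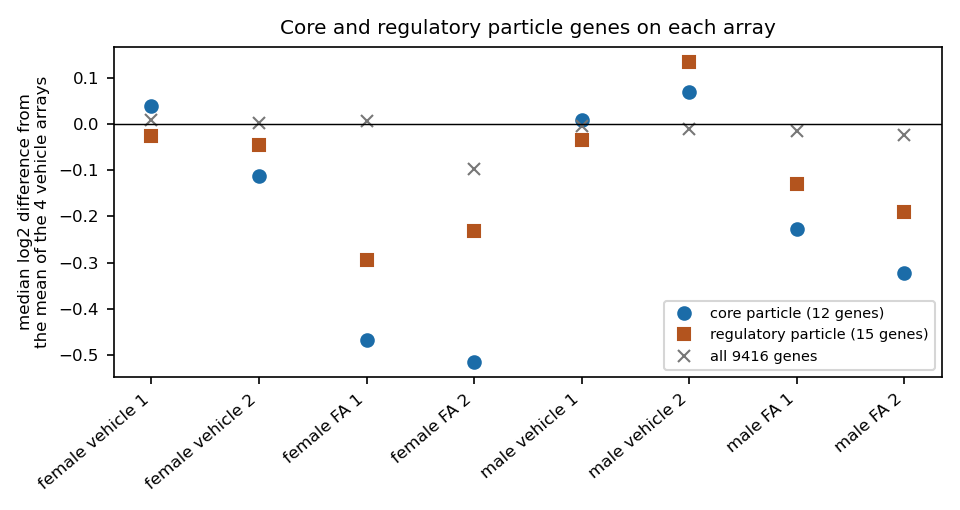
Median log2 difference from the mean of the 4 vehicle arrays, for the 12 core particle genes (circles), the 15 regulatory particle genes (squares) and all 9416 genes (crosses), on each of the 8 arrays. Core medians on the FA arrays run from -0.52 to -0.23, and regulatory medians from -0.29 to -0.13.

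**Figure D4:**
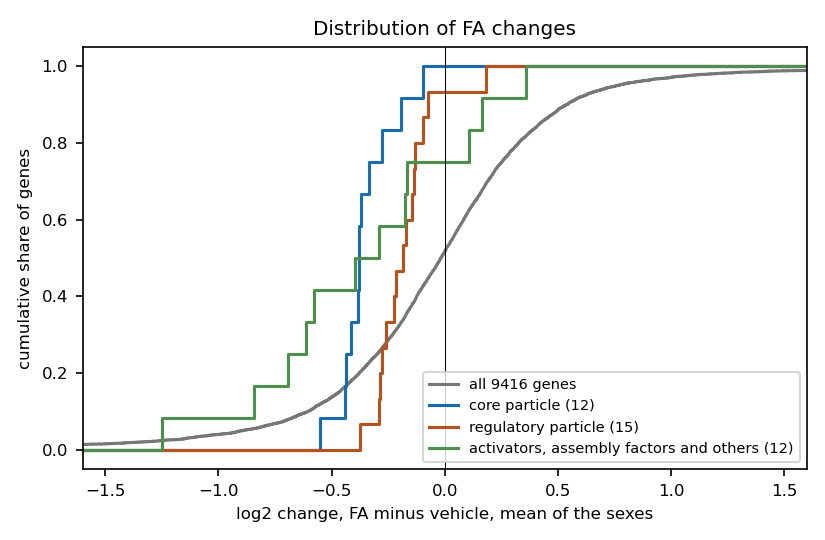
Cumulative share of genes against the log2 change (FA minus vehicle, mean of the sexes) for the core particle, the regulatory particle, the 12 remaining proteasome genes and all 9416 genes. The core curve lies left of the regulatory curve, with medians of -0.38 and -0.19, and all genes have a median of -0.02.

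Of the 4 activators, 2 passed. Psme1 and Psme2 encode the alpha and beta subunits of PA28, the interferon-inducible cap linked to antigen processing, and both fell. Psme1 (chr14:55578494-55581527) read 10.63 and 10.39 in female vehicle, 9.93 and 9.87 in female FA, 10.67 and 10.65 in male vehicle, and 10.18 and 9.90 in male FA. Every FA array was below every vehicle array. The fall was 0.61 ± 0.12 (adjusted p = 0.0141, limma), of like size in females (-0.61) and males (-0.62) by the probe used. Its other probe gave -0.64 in the mean of the sexes, but -0.98 in females and -0.30 in males.

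Psme2 (chr14:55587440-55591101) read 7.92 and 7.20 in female vehicle, 6.50 and 5.78 in female FA, 8.02 and 8.26 in male vehicle, and 8.06 and 7.68 in male FA. The second female FA array was not above background, and the male groups overlapped. It fell by 0.84 ± 0.23 in the mean of the sexes (adjusted p = 0.0394, limma). A near-identical paralog, Psme2b, is annotated, and whether the probe tells them apart was not checked.

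Psme3, the nuclear PA28 gamma, had a change of -0.18 ± 0.13 (adjusted p = 0.362, limma). Psme4 encodes PA200, a nuclear cap known from DNA repair and sperm development. It read 10.93 and 10.71 in female vehicle, 11.15 and 11.10 in female FA, 11.10 and 10.98 in male vehicle, and 11.58 and 11.33 in male FA. All FA arrays were above the highest vehicle array, in females narrowly, by 0.36 ± 0.12, without passing (adjusted p = 0.0767, limma). It passed with no background correction, among genes detected on all 8 arrays and with an intensity trend.

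Of the 6 assembly factors, 5 had a change below 0, with a median of -0.34. As lower, 1 passed (16.7%, against 11.4% of all genes). Psmg1 (chr16:95979933-95990960), which with Psmg2 forms the chaperone that starts the alpha ring, read 7.01 and 6.66 in female vehicle, 6.36 and 6.03 in female FA, 7.31 and 7.43 in male vehicle, and 6.73 and 6.53 in male FA. Within each sex the FA arrays were lower, and males read higher than females in both conditions. It fell by 0.69 ± 0.14 (adjusted p = 0.0153, limma), to 61.9% of the vehicle level.

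Its partner Psmg2 read 9.02 and 8.97 in female vehicle, 9.03 and 9.19 in female FA, 8.75 and 8.82 in male vehicle, and 9.11 and 8.87 in male FA. It lay on the other side of 0, at 0.16 ± 0.12 (adjusted p = 0.368, limma) by the probe used and at 0.01 by its other probe. The difference between the partners was not tested. Psmg3, part of a further alpha ring chaperone, had all FA arrays lowest with a wide spread (-0.58 ± 0.22, adjusted p = 0.104). Of the chaperones of the regulatory base, Psmd10 (gankyrin) had a change of -0.40 ± 0.12 with all FA arrays lowest (adjusted p = 0.0517), and all 3 of its probes were below 0. Psmd5 was not above background in male FA. Its male vehicle mean was 1.40-fold above the lowest level detected on those arrays, and the male change did not pass (adjusted p = 0.171, limma). In females the change of Psmd5 was 0.02 ± 0.23. Psmd9, above background on 4 of 8 arrays, was too dim for a fold.

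Psmc3ip had the largest change of all 39 genes. It is no subunit of the proteasome but a partner of the meiotic recombinases that was named for binding Psmc3. It lies at chr11:101092141-101095435 and read 6.90 and 6.91 in female vehicle, 5.55 and 5.19 in female FA, 6.36 and 6.59 in male vehicle, and 5.37 and 5.64 in male FA. The FA and vehicle arrays were widely separated in both sexes, with the second female FA array not above background. It fell by 1.25 ± 0.14 (adjusted p = 0.00119, limma), to 42.1% of the vehicle level. Psme3ip1, which binds PA28 gamma, had a change of 0.11 by the probe used and -0.03 by its other probe. Without these 2 genes, 7 of 37 passed (18.9%, against 20.8% of all genes in either direction and 11.4% as lower).

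Comparing the sexes asks whether FA acts on these genes alike in females and males. In females, 3 genes passed (Psmb6, Psme2 and Psmc3ip), against 10.0% of all genes, and the median change was -0.31, against -0.04 for all genes. In males 1 gene passed (Psmc3ip), against 8.19% of all genes, and the median was -0.22, against -0.01. Both shares of proteasome genes called were below that of all genes. The change was below 0 for 31 of 39 genes in females and 33 of 39 in males, against 53.3% and 50.6% of all genes. The core median was -0.52 in females and -0.23 in males, and the regulatory median -0.18 and -0.19. With the mean of all probes of a gene these were, in the same order, -0.49, -0.24, -0.24 and -0.19. Without female FA replicate 2, which stood apart, the female medians were -0.46 and -0.22. Over all arrays left out in turn, the female core median ran from -0.52 to -0.39 (without female vehicle replicate 1). The male core median ran from -0.33 (without male FA replicate 1) to -0.15 (without male vehicle replicate 2), and the male regulatory median from -0.25 to -0.12 (without male vehicle replicate 1 and 2). The number of genes called within each sex also moved with the array left out. The share of all genes called within each sex was not taken in these fits. The number called there is therefore no result about the proteasome genes.

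Psmb6 fell by 1.0 in females (adjusted p = 0.0204, limma) and had a change of -0.10 in males (adjusted p = 0.821). Psme2 fell by 1.42 in females (adjusted p = 0.0370, limma) and had a change of -0.27 in males (adjusted p = 0.698). Psmc3ip fell by 1.53 in females (adjusted p = 0.00458, limma) and by 0.97 in males (adjusted p = 0.0272).

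The test of the difference between the sexes itself called none of the 39 genes, against 0.0212% of all genes. An unadjusted p under 0.05 was found for 618 of all 9416 genes and for 2 of the 39. These were Psmb6, with a male minus female difference of 0.90 ± 0.27 (adjusted p = 0.714, limma), and Psme2, with 1.15 ± 0.46 (adjusted p = 0.731). Without female FA replicate 1 both passed (adjusted p = 0.0320 and 0.0400), a fit in which female FA rests on the array that stood apart. Without female FA replicate 2 the differences were 0.71 and 0.79 and neither passed (adjusted p = 0.728 and 0.812).

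Levels of other cell types' markers also split by sex on these arrays. Of 4 listed sebaceous gland markers, Scd1, Mgst1 and Elovl6 were measured and Awat1 was not. The 3 measured ones were above background on all 8 arrays. All 3 passed as lower in females, with a median of -1.82, and 0 passed in males, with a median of -0.44. Their summed level was 14.28 to 14.46 in vehicle and 12.35 to 14.27 in FA. The male minus female difference in FA change had a median of 1.58, with 0 of 3 passing and 2 at an unadjusted p under 0.05. The 6 skeletal muscle markers had changes below 0 in females (median -1.64, 5 at an unadjusted p under 0.05) and above 0 in males (median 1.45, 3 at an unadjusted p under 0.05). Their difference had a median of 3.18, with 0 of 6 passing and 6 at an unadjusted p under 0.05. The 6 fibroblast markers were above female levels in male vehicle, with a median difference of 1.96, 0 passing and 6 at an unadjusted p under 0.05. Their summed level was 9.24 to 11.84 in vehicle and 8.68 to 10.56 in FA. The part of these cell types in the proteasome values was not tested.

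Without FA the sexes gave no called difference in these genes. The vehicle comparison, male minus female, called none of the 39 genes, against 0.0743% of all genes. An unadjusted p under 0.05 was found for 545 of all 9416 genes and for 1 of the 39. This was Psmg1, higher in males by 0.54 (adjusted p = 0.760, limma).

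The immunoproteasome subunits, which replace the constitutive active sites when interferon is present, are given beside their constitutive partners. Of the 3 immunoproteasome subunits, 2 fell (66.7%, against 11.4% of all genes). Psmb10, which takes the place of Psmb7, read 9.44 and 8.75 in female vehicle, 7.46 and 7.92 in female FA, 9.47 and 9.51 in male vehicle, and 7.53 and 7.54 in male FA. All FA arrays were far below the vehicle arrays, and it fell by 1.68 ± 0.18 (adjusted p = 0.00112, limma), to 31.3% of its vehicle level. Psmb9, which replaces Psmb6, fell by 0.97 ± 0.13 (adjusted p = 0.00303). Psmb8, which replaces Psmb5, had a change of -0.33 (adjusted p = 0.219). The differences within these pairs were not tested. The immune cell markers given above were lower on the same arrays.

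Genes that act with the proteasome were counted from lists. Of 18 listed proteins that bind it, 11 were measured and 1 fell, Pomp, the maturation factor of the core particle. The share that fell was 9.09%, against 11.4% of all genes. Pomp read 12.10 and 11.96 in female vehicle, 11.60 and 11.42 in female FA, 12.09 and 12.20 in male vehicle, and 11.85 and 11.68 in male FA. Every FA array was below every vehicle array, by 0.45 ± 0.12 (adjusted p = 0.0344, limma). The list's median was 0.00. Of its ubiquitin receptors and shuttles, Ubqln1 had a change of 0.21 with all 4 FA arrays above all 4 vehicle arrays (adjusted p = 0.240), Rad23b one of -0.05 and Ubqln4 one of 0.03, and none of them passed.

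The Nrf1 route restores proteasome genes when the proteasome is inhibited. Of its 10 listed genes, 8 were measured, 1 fell and 1 rose, with a median of 0.18. The share that passed was 25.0%, against 20.8% of all genes. Nfe2l1, which encodes Nrf1 itself, had a change of -0.08 (adjusted p = 0.677, limma), and Nfe2l2, which encodes Nrf2, one of 0.20 with values near background. Sel1l, of the machinery that extracts proteins from the endoplasmic reticulum, fell by 0.47 ± 0.13 (adjusted p = 0.0394), and Mafg, a small Maf partner of both factors, rose by 0.39 ± 0.11 (adjusted p = 0.0414). Of 7 measured cofactors of p97, the ATPase that hands substrates to the proteasome, Ubxn6 rose by 0.45 ± 0.13 (adjusted p = 0.0445), and none fell. That share was 14.3%, against 20.8% of all genes in either direction.

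The genes that mark glucocorticoid-driven protein loss in muscle went up where they passed. Of 9 listed, 7 were measured and 3 rose (42.9%, against 9.40% of all genes), with a median of 0.26. The transcription factor Foxo1 read 7.17 and 7.14 in female vehicle, 8.51 and 8.47 in female FA, 7.21 and 7.05 in male vehicle, and 8.58 and 8.36 in male FA. It rose by 1.34 ± 0.12 (adjusted p = 3.78e-04, limma), with no overlap of the groups. The ubiquitin ligase Fbxo32 (atrogin-1) rose by 1.22 ± 0.13 (adjusted p = 8.13e-04) and Fbxo30 by 0.79 ± 0.21 (adjusted p = 0.0366). Markers of skeletal muscle, a tissue below the skin, had a summed level of 10.47 to 12.59 in vehicle and 8.63 to 14.12 in FA, with 0 of 6 passing in the mean of the sexes. That range divides by sex as given above, and the part of these markers was not tested. Among deubiquitinating and E2 enzymes, 11 of 12 were measured and 1 fell, Uchl3, a ubiquitin hydrolase, by 0.63 ± 0.12 (adjusted p = 0.0102). The share that fell there was 9.09%, against 11.4% of all genes. Ubiquitin and E1 genes were not analysed here.

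**Figure D5:**
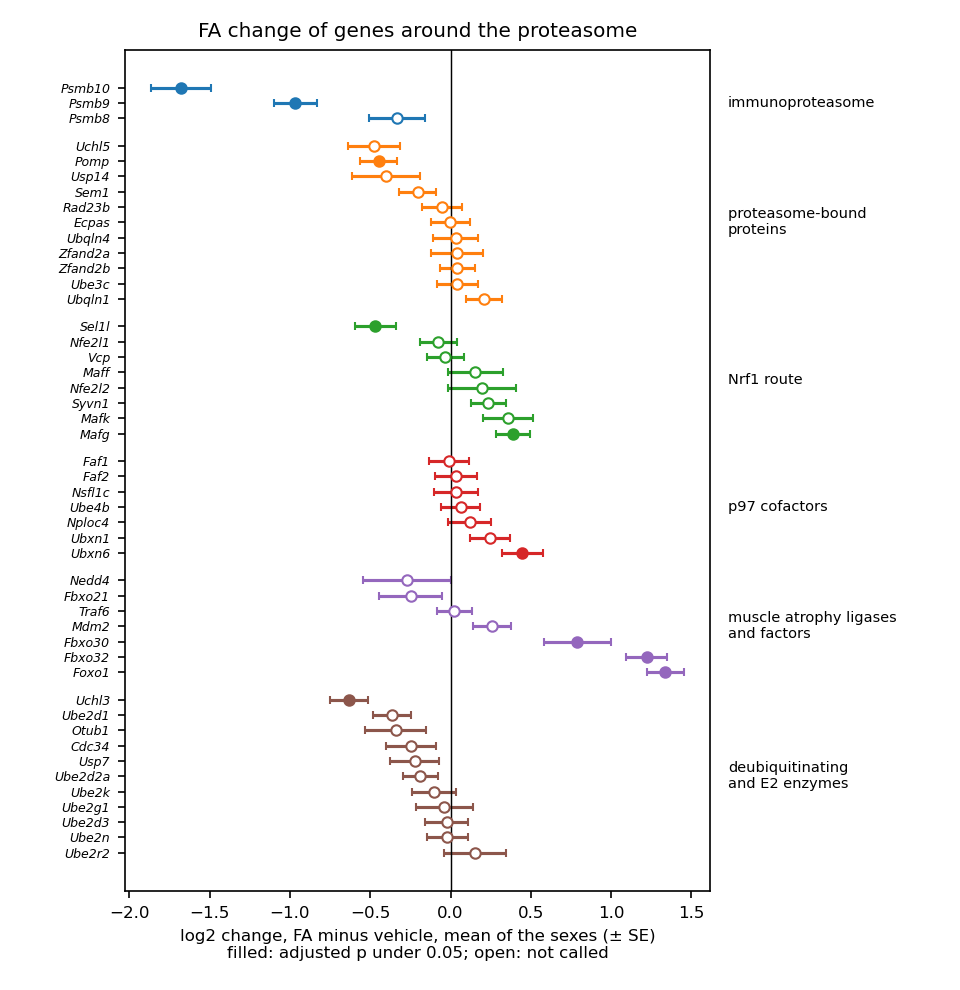
The log2 change (FA minus vehicle, mean of the sexes) ± SE of the measured genes of 6 lists around the proteasome, filled where the adjusted p is under 0.05. Psmb10 and Psmb9 lie lowest (-1.68 and -0.97), and Foxo1 and Fbxo32 highest (1.34 and 1.22).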

How the data were processed

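Epidermal RNA from 8 samples was hybridised to 8 Illumina bead arrays. The deposited unprocessed table holds probe intensity values and a detection p-value per array, per the file headers. The authors' matrix holds log2 values, and the submitters' processing notes name limma. Its 13247 probes are those with detection p under 0.05 on at least 2 arrays, and limma's neqc (normexp with offset 16, quantile normalization) of the 25697 unprocessed probes gave its values to within 4.99934e-09. The offset makes changes of dim probes too small.

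Of these probes, 12476 carried 1 gene symbol, 771 none and 0 several. The probe with the highest mean over the arrays stood for each of 9416 genes. A linear model with 4 group means was fitted across all genes with limma 3.58.1 in R 4.3.3 (lmFit, eBayes, 4 residual and 3.35 prior degrees of freedom), two-sided, with Benjamini-Hochberg adjustment. "Passed" or "called" means adjusted p under 0.05. The fit was tested on simulated data. The number of arrays limits precision.

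A probe not above background on both arrays of a group got a bound in place of a fold. Genes were named where they passed, as the highest and lowest of each structural group, or as the leading members of a list. The other members given with values were chosen after these were seen. The members and lists were chosen with earlier results of these data known. Alternatives covered normalization, background correction, detection filters, probe choice, array weights, variance trend, a replicate block and leaving out each array. Probe sequences, pseudogenes and paralogs were not checked.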

Additional observations from a re-analysis of the deposited data

How the results depend on the processing

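The median changes kept their sign under every alternative run. Leaving out each array in turn, the median was -0.32 to -0.23 for the 39 genes, -0.41 to -0.34 for the core particle and -0.25 to -0.15 for the regulatory particle, with a difference of -0.22 to -0.13. The number called ranged from 1 to 13 in the mean of the sexes, 1 to 9 in females, 0 to 4 in males, 0 to 2 for the difference between the sexes, and 0 to 0 in vehicle. A lone array was then assumed to vary like the other groups. With no background correction, 17 genes were called in the mean of the sexes, against 26.1% of all genes. In females 12 were called and in males 5. With an intensity trend in the prior variance these counts were 17, 12 and 3, with 25.7% of all genes in the mean. Among probes detected on all 8 arrays, 12 of 33 members were called in the mean, against 36.2% of all genes. In that setting 10 were called in females and 2 in males. Array weights gave 3 in males. The cause of these differences was not tested. Replicate numbers did not pair the samples (correlations of deviations from -0.03 to 0.23). With the replicate number as a block, 6 genes were called in the mean of the sexes (against 20.2% of all genes), 3 in females and 1 in males. The share of all genes called within each sex was not taken in the alternatives or without single arrays. Those counts by sex therefore have no background beside them. Changes that turned sign were Psmc6, to 0.22 with median scaling, 0.06 without male vehicle replicate 2 and 0.14 without male FA replicate 2, Psma3, to 0.032 without male FA replicate 2, and Nfe2l2, to -0.048 without female FA replicate 1. The range without single arrays was -0.29 to 0.14 for Psmc6, -0.048 to 0.44 for Nfe2l2 and -0.23 to 0.032 for Psma3. Of members not named by rule, Psmd9 turned to 0.06 with median scaling and Psmd6 to 0.03 without female FA replicate 2. Median scaling moved the median of all genes in females from -0.04 to 0.15, and the core median there was then -0.50, with -0.14 for the regulatory particle. Of the genes called higher or lower across all genes, the share higher was 45.3%, and 50.7% with median scaling. Low signal limits Psmc6, Psmd5 and Psmd9.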
